A study of Mus musculus with 4 samples.

Results

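The genes described here are 44 antioxidant, NRF2 and detoxification genes, listed by symbol for their role in redox defense. They were found on the array through the RefSeq accession of each probe, and all 44 had a probe, out of 22911 gene symbols with a probe. They held 55 of 56605 probes, and 10 genes had more than 1 probe.

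NRF2, encoded by Nfe2l2, is a transcription factor that KEAP1 holds at a low level by directing it to degradation. Electrophiles and oxidants modify KEAP1, NRF2 then accumulates, and together with small MAF proteins it binds antioxidant response elements in front of genes for glutathione and thioredoxin metabolism, quinone reduction, iron storage and the transfer of glutathione to reactive compounds. The metallothioneins belong to a neighboring system, in which zinc and other metals act through the factor MTF1 on metal response elements.

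RNA was measured in ID8G and GO2 cells, on 2 Agilent arrays per cell line with 1 color per array. ID8G cells are ID8 cells, a mouse ovarian cancer line that arose by spontaneous transformation of ovarian surface epithelial cells, carrying GFP from a retrovirus. GO2 cells are descendants of ID8G cells that were injected into the peritoneal cavity of mice, sorted from omental tumors as cells with GFP and without CD45, the leukocyte surface protein that Ptprc encodes, injected again and sorted in the same way from the omental tumors that followed. The comparison asks which transcripts differ after these 2 rounds of growth in mice. Both lines were kept in the same medium, DMEM with 4% FBS, 5 μg/ml insulin, 5 μg/ml transferrin and 5 ng/ml sodium selenite, so that iron carrier and selenium were supplied to both. Each group is 1 cell population, and nothing states that the 2 arrays of a line came from separate cultures, so the p-values measure only the spread between these arrays.

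All 4 arrays shared 1 slide and 1 scan. Their 75th percentiles of intensity lay between 627 and 675, and the 2 arrays of a line correlated at 0.997 across probes. Values below are log2 levels relative to the 75th percentile of the array. A level belongs to its own probe and, outside the marker sums that follow, is not set against that of another gene. Of 7 ovarian surface and mesothelial markers, all but Krt7 (Krt8, Krt18, Krt19, Wt1, Msln and Upk3b) gave signal well above background on every array, and Krt19 was called lower (-1.65) and Upk3b higher (1.08) in GO2 cells. Their summed level, in multiples of the 75th percentile, was 655 to 661 in ID8G and 372 to 376 in GO2 cells. Krt18, Krt19 and Krt8 made up most of that sum. Of 5 fibroblast markers, Pdgfra was higher in GO2 cells (log2 difference 3.70, limma), Dcn was lower (-0.63), and Lum, Thy1 and Fap were well above background on no array. Their summed level was 64.8 to 67.5 in ID8G and 43.7 to 44.0 in GO2 cells. Nearly all of it was Dcn, so it does not show the rise of Pdgfra. Of 7 leukocyte markers, Ptprc, Adgre1 and Lyz2 were well above background on no array and Itgam, Csf1r, Cd68 and Cd3e on all 4. None of these was called (0 also at an unadjusted p below 0.05 in limma). Their summed level was 22.7 to 25.6 in ID8G and 23.0 to 23.2 in GO2 cells, most of it Itgam. The GO2 cells had been sorted against CD45, and Ptprc was not well above background in either line, while Itgam, Csf1r, Cd68 and Cd3e were in both. The part of leukocytes, fibroblasts and mesothelial cells in the differences below was not tested.

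Most of the redox defense genes differed between the lines by less than 2-fold, and 3 stood far apart. The metallothioneins Mt1 and Mt2, small proteins that bind zinc and copper and scavenge radicals, rose 4.02-fold and 5.24-fold in GO2 cells. Mgst2, a membrane-bound glutathione transferase that also makes leukotriene C4, rose 4.58-fold. No member fell by as much as 2-fold, and the largest decrease among the members tested was 1.62-fold, in the mitochondrial peroxiredoxin Prdx3.

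A gene was called when limma gave a Benjamini-Hochberg adjusted p below 0.05 over all 28368 probes tested and a difference of at least 2-fold, with the brightest probe standing for the gene. By this rule 3 of the 42 members tested were called higher, beside 5.96% of the 13212 gene symbols tested, and 0 were called lower, beside 3.94%. At an unadjusted p below 0.05 and a 2-fold minimum, limma likewise put 0 members lower, beside 4.07% of the gene symbols. Without the fold minimum 10 members passed the adjusted p as higher and 10 as lower, beside 21.0% and 20.0% of the gene symbols. This even split depends on the scaling. With the levels scaled to the spike-in RNA, 5 members passed as higher and 15 as lower. That scaling lowers every difference by 0.208, in members and other genes alike. The share of gene symbols that pass under it is not given, so these counts are not a trait of the members. Nqo1, Gss, Txnrd1, Mgst1 and Mgst3 then came to pass as lower. The median difference over all probes tested went from -0.02 to -0.23. Taking both directions, 20 of 42 members passed (47.6%), beside 41.0% of the gene symbols. The median difference was -0.02 over the 42 members and 0.00 over the gene symbols tested, and the median size of a difference, without its sign, was 0.20 in the members and 0.21 in the gene symbols. The 95% interval of the difference lay within 2-fold in either direction for 39 of the 42 members, beside 85.6% of the gene symbols. In bulk RNA, more transcript per cell and more cells with the transcript cannot be told apart. With 2 arrays against 2, an exact two-sided permutation test cannot give a p below 0.333, so the calls rest on the variance that limma shares across probes.

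**Figure D1:**
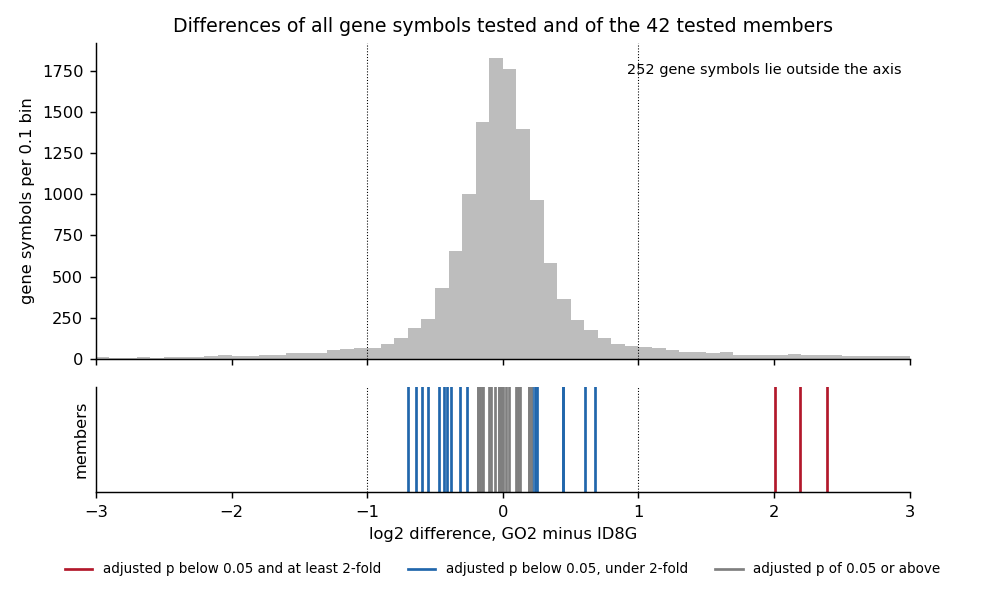
Upper panel, number of gene symbols (y axis, per bin of 0.1) by log2 difference between GO2 and ID8G cells (x axis). Lower panel, 1 line for each of the 42 tested members, with dotted lines at a 2-fold difference. All but 3 members lie between -0.70 and 0.68, in the bulk of the distribution, and Mt1, Mgst2 and Mt2 lie at 2.01 to 2.39.

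The metallothionein genes Mt4, Mt3, Mt2 and Mt1 lie in that order on chromosome 8, with the starts of Mt2 and Mt1 6471 bases apart (GRCm38.p6). Because both of these genes rose, the 250 bases before each start site are shown, from RefSeq for that build. Capitals mark the core of the metal response element, TGCGCNC or TGCACNC on either strand, where N is any base. Mt2 is at chr8:94172368-94172617 and Mt1 at chr8:94178839-94179088, both on the plus strand.

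Mt2: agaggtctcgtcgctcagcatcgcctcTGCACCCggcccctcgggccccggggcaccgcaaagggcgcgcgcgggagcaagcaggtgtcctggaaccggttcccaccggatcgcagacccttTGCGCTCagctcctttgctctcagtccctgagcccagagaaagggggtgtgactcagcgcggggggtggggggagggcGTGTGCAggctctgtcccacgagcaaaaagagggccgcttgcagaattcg

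Mt1: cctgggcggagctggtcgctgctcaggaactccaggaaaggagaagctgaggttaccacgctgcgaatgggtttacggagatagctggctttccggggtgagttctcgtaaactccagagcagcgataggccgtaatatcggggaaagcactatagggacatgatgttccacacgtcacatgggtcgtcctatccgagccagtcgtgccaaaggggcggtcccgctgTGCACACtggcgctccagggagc

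The shown stretch of Mt2 held 3 such cores and that of Mt1 held 1. In the whole promoter of 300 bases, which runs 50 bases past the start, Mt2 held 4 cores and Mt1 held 3. Of 32851 mouse promoters of this length, 25.7% held at least 1 core, 1.31% at least 3 and 0.295% at least 4. Among the members, 22.2% of the promoters held at least 1 core. Of the 10 members with one, Mt1, Mt2, Gclm and Srxn1 rose, G6pdx fell, Gstk1, Gstt1, Pgd and Prdx4 did not pass the adjusted p and Gpx7 was not tested. Gclm, which rose 1.36-fold, held 3 cores like Mt1, and Gstk1 and Pgd held 2 each. A match of letters is no evidence that a factor was bound there.

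Mt1 had a log2 level of 3.05 and 2.94 on the ID8G arrays and of 5.06 and 4.95 on the GO2 arrays. Both GO2 arrays lay far above both ID8G arrays, and the 2 arrays of a line lay close together. The difference was 2.01 (SE 0.07, adjusted p = 0.000447, limma). A second probe for Mt1, designed on a predicted transcript, was well above background on too few arrays to be tested.

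Mt2 had a log2 level of -0.14 and -0.09 in ID8G cells and of 2.29 and 2.26 in GO2 cells, again without overlap. The difference was 2.39 (SE 0.05, adjusted p = 0.000227, limma), the largest of the 42 members tested.

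The other metallothioneins of the cluster were in the list of further pathway genes, and they are named here after their values were seen. Mt3, the form best known from brain, was 0.25 lower in GO2 cells (SE 0.05, adjusted p = 0.027, limma). Mt4, a form of stratified epithelium, differed by -0.07 (95% interval -0.53 to 0.39) with overlapping arrays. Mtf1, the zinc sensor that drives Mt1 and Mt2, had a log2 level of 1.60 and 1.68 in ID8G cells and of 1.87 and 1.89 in GO2 cells, a difference of 0.24 (SE 0.06, adjusted p = 0.037, limma), and its other tested probes reached 0.35 and 0.44. With the levels scaled to the spike-in RNA in place of the 75th percentile, every difference is 0.208 lower, which leaves the brightest Mtf1 probe near 0 and Mt1 and Mt2 at 1.80 and 2.18.

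Metal transporters moved in both directions. Slc39a8, an importer of zinc and manganese, was well above background on both GO2 arrays and on neither ID8G array. It entered the test only through the GO2 arrays, where it is high, so its adjusted p is not given as support. It was higher in GO2 cells, with an approximate bound of 3.62-fold. The bound sets the GO2 mean against the lowest signal well above background on the ID8G arrays. It is approximate, since a probe can lie above that lowest signal and still not be well above background. On GO2 replicate 1, Gpx7 lay at -3.70, above the array's lowest of -3.77, and was not well above background. The bound also belongs to this processing only. After normexp background correction the log2 difference was 1.12, under the 1.86 of the bound. Slc30a1, the zinc exporter of the plasma membrane, was 1.64-fold lower, at 2.01 and 1.94 in ID8G against 1.30 and 1.22 in GO2 cells (SE 0.06, adjusted p = 0.0033, limma).

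**Figure D2:**
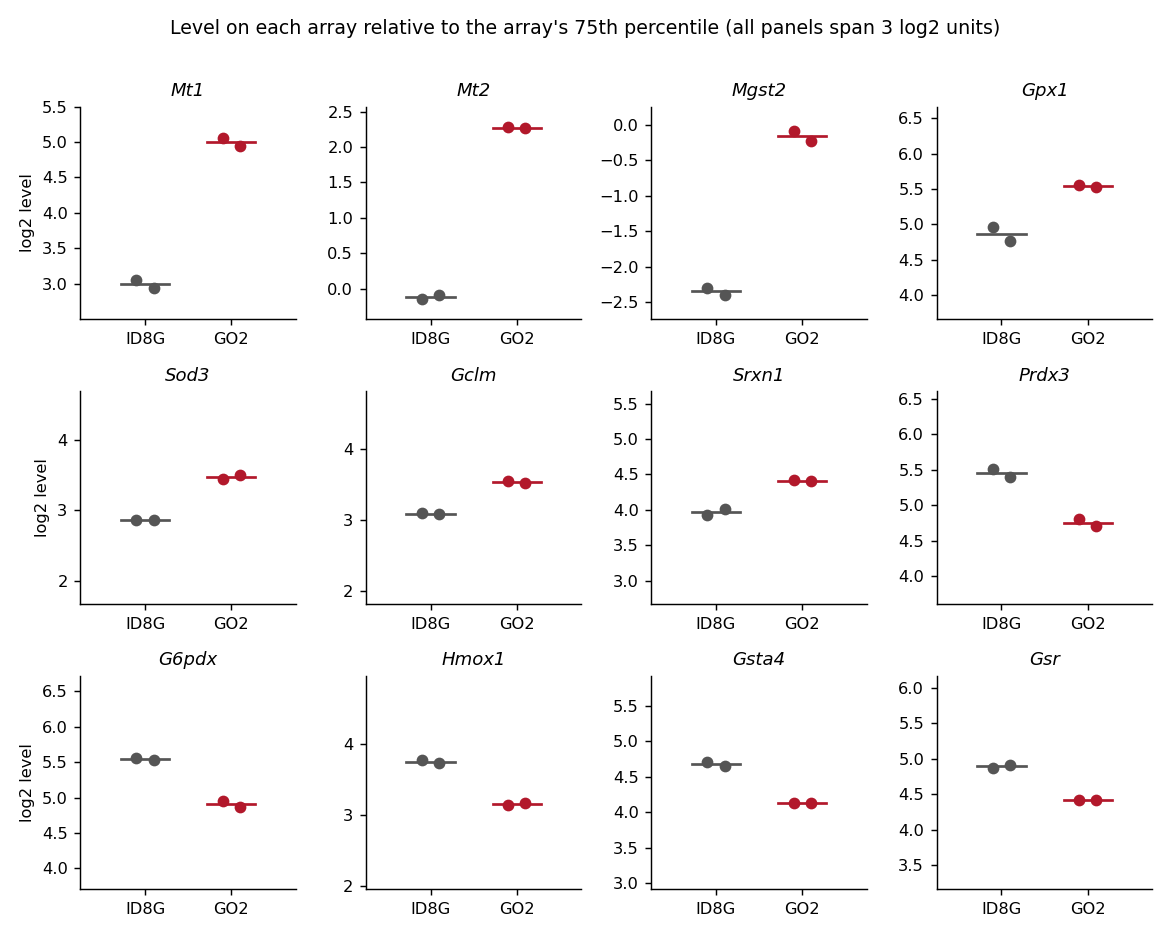
Log2 level relative to the 75th percentile of the array (y axis, each panel spans 3 log2 units) for 12 members in ID8G and GO2 cells. Points are single arrays, 2 per line, and bars their mean. In every panel both GO2 arrays lie on one side of both ID8G arrays, and the means differ by 2.01 to 2.39 for Mt1, Mgst2 and Mt2 and by less than 0.70 for the other panels.

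Mgst2 was the only one of 8 glutathione transferases among the members, the enzymes that join glutathione to electrophiles, to be called. It had a log2 level of -2.31 and -2.40 in ID8G cells and of -0.09 and -0.23 in GO2 cells, well above background on all 4 arrays and without overlap. The difference was 2.19 (SE 0.08, adjusted p = 0.000414, limma). The size is the least steady of the 3 called genes, at 1.53 after normexp background correction. The promoter of Mgst2, at chr3:51660929-51661178 on the plus strand (GRCm38.p6), is shown for contrast with the metallothioneins, since it held neither a metal response element core nor an antioxidant response element core in all 300 bases and so has no capitals.

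Mgst2: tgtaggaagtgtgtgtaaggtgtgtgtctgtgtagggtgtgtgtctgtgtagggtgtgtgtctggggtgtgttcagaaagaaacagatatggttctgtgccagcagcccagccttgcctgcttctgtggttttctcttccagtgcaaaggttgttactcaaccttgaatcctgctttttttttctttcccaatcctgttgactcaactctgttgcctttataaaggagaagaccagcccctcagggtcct

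The 2 related microsomal enzymes did not pass on their main probes. Mgst1 differed by -0.15 (95% interval -0.31 to 0.01) and Mgst3 by -0.18 (-0.35 to -0.02), though a second Mgst1 probe was 0.35 lower (adjusted p = 0.023, limma). Scaled to the spike-ins, the main probes of both passed as lower, at -0.35 and -0.39. Among the soluble transferases, Gsta4, which clears the lipid peroxidation product 4-hydroxynonenal, fell 1.46-fold. Its log2 level was 4.71 and 4.66 in ID8G and 4.13 and 4.14 in GO2 cells (SE 0.05, adjusted p = 0.0041, limma). Gstp1, Gsto1, Gstt1 and Gstk1 differed by -0.03 to 0.21 and did not pass the adjusted p. A probe for the near-identical Gstp2 exists on the array, and whether the Gstp1 probe also binds that transcript was not tested.

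In the NRF2 switch itself, the transcript of the factor was slightly lower and that of its adaptor did not move past the spread. Nfe2l2 had a log2 level of 4.81 and 4.73 in ID8G cells and of 4.51 and 4.41 in GO2 cells, so both GO2 arrays were lower. The fall was 1.24-fold (SE 0.07, adjusted p = 0.031, limma), and it no longer passed the adjusted p when any 1 of the 4 arrays was left out. Keap1 differed by -0.02 (95% interval -0.16 to 0.13) with overlapping arrays. NRF2 is controlled mainly as a protein, which these arrays do not measure.

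Transcripts that NRF2 is known to drive were split in direction. Gclm and Gclc encode the modifier and catalytic subunits of glutamate-cysteine ligase, the first step of glutathione synthesis, and both rose, by 1.36-fold and 1.18-fold. Srxn1, the sulfiredoxin that repairs overoxidized peroxiredoxins, rose 1.36-fold. Hmox1, the inducible heme oxygenase, fell 1.51-fold, and glutathione reductase, Gsr, which returns oxidized glutathione to its reduced form, fell 1.39-fold. Nqo1, the quinone reductase often read as a measure of NRF2 activity, differed by -0.17 (95% interval -0.40 to 0.06), with 2.45 and 2.34 in ID8G and 2.31 and 2.14 in GO2 cells. Scaled to the spike-ins, Nqo1 was 0.38 lower and passed (adjusted p = 0.045, limma).

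The values behind these statements were close within each line. Gclm had a log2 level of 3.10 and 3.08 in ID8G and of 3.55 and 3.52 in GO2 cells (difference 0.45, SE 0.05, adjusted p = 0.0064, limma). Srxn1 had 3.93 and 4.02 in ID8G and 4.41 on both GO2 arrays (difference 0.44, SE 0.06, adjusted p = 0.0093, limma). Gclc had 2.54 and 2.59 in ID8G and 2.83 and 2.77 in GO2 cells (difference 0.24, SE 0.06, adjusted p = 0.038, limma). For all 3 the GO2 arrays were the higher, but scaled to the spike-ins none of these 3 passed the adjusted p, with differences of 0.24, 0.23 and 0.03. Gclc passed in only 8 of 16 limma settings, and in none that left out 1 of the 4 arrays.

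The decreases were further from the threshold. Hmox1 had a log2 level of 3.77 and 3.73 in ID8G and of 3.13 and 3.17 in GO2 cells (difference -0.60, SE 0.05, adjusted p = 0.0036, limma). Gsr had 4.88 and 4.91 in ID8G and 4.42 on both GO2 arrays (difference -0.47, SE 0.05, adjusted p = 0.0057, limma). The GO2 arrays were the lower for both genes, and scaled to the spike-ins the differences were -0.81 and -0.68. The remaining gene of glutathione synthesis, Gss, differed by -0.15 on its main probe and did not pass. Scaled to the spike-ins, Gss passed as lower at -0.36.

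The promoters bear on this split only as a description. Promoter sequences of 37 of the 44 members were searched, and those of Hmox1, Gclc, Gsr, Prdx6, Sod3, Gsta4 and Akr1b3 were not used here. The core of the antioxidant response element, TGACNNNGC on either strand, was found in 10 of 45 member promoters, which is 22.2%, and in 12.4% of all mouse promoters of 300 bases. Of the 10 members that held it, Gclm, Srxn1 and Mt2 rose, G6pdx and Nfe2l2 fell, and Mgst1, Pgd, Prdx1, Sod1 and Txnrd1 did not pass the adjusted p. The 250 bases before Gclm, at chr3:122245307-122245556 on the plus strand (GRCm38.p6), are shown as an example of a member that rose, with the antioxidant response element core in capitals as it reads on the opposite strand.

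Gclm: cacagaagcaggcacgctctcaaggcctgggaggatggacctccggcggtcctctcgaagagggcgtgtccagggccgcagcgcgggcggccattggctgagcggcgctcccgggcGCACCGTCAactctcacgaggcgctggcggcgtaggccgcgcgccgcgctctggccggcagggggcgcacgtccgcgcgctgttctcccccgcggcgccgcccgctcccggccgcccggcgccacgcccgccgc

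The thioredoxin system reduces protein disulfides and feeds the peroxiredoxins, which remove hydrogen peroxide. Besides Srxn1, Txn1 differed by 0.19 and the cytosolic reductase Txnrd1 by -0.18, neither past the adjusted p. A second Txnrd1 probe was 0.29 lower (adjusted p = 0.020, limma). Scaled to the spike-ins, the main Txnrd1 probe passed as lower at -0.39. Of 5 peroxiredoxins, the mitochondrial Prdx3 fell 1.62-fold and Prdx5, found in mitochondria, peroxisomes and cytosol, rose 1.19-fold. Prdx3 had a log2 level of 5.51 and 5.40 in ID8G and of 4.81 and 4.70 in GO2 cells (SE 0.07, adjusted p = 0.0054, limma). Prdx5 had 5.16 and 5.13 in ID8G and 5.43 and 5.36 in GO2 cells (SE 0.06, adjusted p = 0.034, limma), and like Gclc it passed in only 8 of 16 limma settings, not scaled to the spike-ins and not with any 1 array left out. Both genes separated the lines without overlap, in opposite directions. Prdx1, Prdx4 and Prdx6 differed by -0.08 to -0.02 on their main probes, and the 3 Prdx1 probes ranged from -0.13 to 0.11, so no direction can be given for that gene.

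Superoxide dismutases turn superoxide into hydrogen peroxide, which catalase and the glutathione peroxidases then remove. Sod3, the secreted form, rose 1.52-fold, from a log2 level of 2.87 and 2.86 on the ID8G arrays to 3.45 and 3.49 on the GO2 arrays (SE 0.05, adjusted p = 0.0032, limma). The mitochondrial Sod2 had 0.61 and 0.68 in ID8G and 0.86 on both GO2 arrays, a difference of 0.22 (adjusted p = 0.047, limma) that did not pass in 10 of 16 limma settings and was 0.01 scaled to the spike-ins. Cytosolic Sod1 and catalase, Cat, differed by 0.04 and 0.11, did not pass, and lay below 0 scaled to the spike-ins.

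Of 5 glutathione peroxidases, 3 could be tested. Gpx1, the abundant cytosolic and mitochondrial form, had a log2 level of 4.97 and 4.77 in ID8G and of 5.56 and 5.53 in GO2 cells, a rise of 1.60-fold (SE 0.09, adjusted p = 0.0089, limma). Gpx4, which reduces lipid hydroperoxides in membranes and guards against ferroptosis, had 7.18 and 7.16 in ID8G and 6.96 and 6.85 in GO2 cells, a fall of 1.20-fold (SE 0.06, adjusted p = 0.040, limma). The 2 genes moved apart, each without overlap of the lines, but Gpx4 did not pass in 8 of 16 limma settings. Gpx8 differed by 0.20 and did not pass. Gpx3 and Gpx7 were not well above background on any array and were not tested. Gpx7, a peroxidase of the endoplasmic reticulum, had measured log2 levels of -5.82 and -6.10 in ID8G and of -3.70 and -3.98 in GO2 cells, not well above background in either line, so no fold is given, and it was the only further member called when dim probes were kept (adjusted p = 0.018, limma).

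The pentose phosphate pathway supplies the NADPH that glutathione reductase and thioredoxin reductase use. G6pdx, its first and rate-limiting enzyme, fell 1.56-fold, from a log2 level of 5.56 and 5.53 in ID8G to 4.95 and 4.86 in GO2 cells (SE 0.06, adjusted p = 0.0038, limma). Taldo1 and Tkt, the transaldolase and transketolase of the non-oxidative branch, fell 1.33-fold and 1.30-fold (adjusted p = 0.012 and 0.01, limma), and a second Taldo1 probe gave the same direction at -0.43. Taldo1 had 7.32 and 7.25 in ID8G and 6.83 and 6.90 in GO2 cells, and Tkt had 6.36 and 6.39 against 5.98 and 6.02. The GO2 arrays lay below the ID8G arrays for all 3. Pgd, the next enzyme of the oxidative branch, differed by 0.19 with an adjusted p of 0.065 (limma). Thus 3 of the 4 genes passed as lower and 0 as higher, beside 20.0% and 21.0% of the gene symbols.

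Among the carbonyl and epoxide enzymes, Ephx1, the microsomal epoxide hydrolase, fell 1.35-fold, from 6.41 and 6.43 in ID8G to 5.99 on both GO2 arrays (SE 0.05, adjusted p = 0.0068, limma). The aldo-keto reductases Akr1b3 and Akr1b8 differed by 0.13 and 0.00 and did not pass. The ferritin subunits, which store iron, did not pass either. Fth1 differed by -0.10 (95% interval -0.24 to 0.03), and the 2 Ftl1 probes by -0.03 and 0.03.

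**Figure D3:**
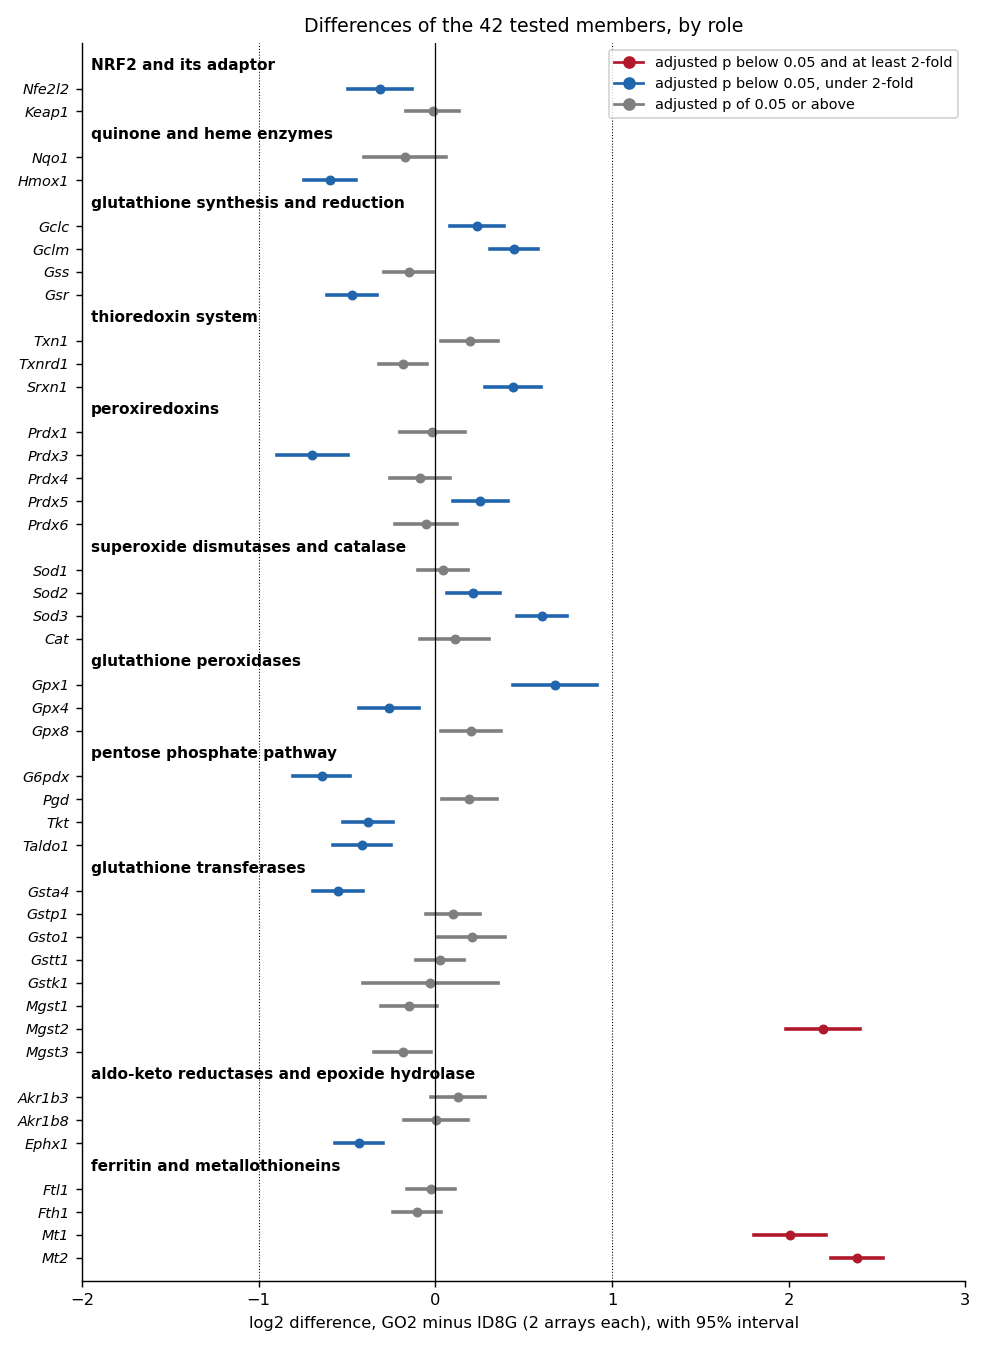
Log2 difference between GO2 and ID8G cells (x axis) with its 95% limma interval for the 42 tested members, grouped by role, with 2 arrays per line. Dotted lines mark 2-fold. Genes past the adjusted p stand on both sides of 0 for glutathione synthesis, peroxiredoxins, glutathione peroxidases and glutathione transferases, and the 3 of the pentose phosphate pathway are all lower.

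Over the members as a whole, the ID8G and GO2 arrays did not overlap for 37 of 42 genes, 19 higher and 18 lower, beside 78.5% of the gene symbols tested. Of the 20 members past the adjusted p, 8 passed in all 16 limma settings, which were Mt1, Mt2, Mgst2 and Sod3 as higher and Prdx3, G6pdx, Hmox1 and Gsta4 as lower. The direction of all 20 held in each of these settings.

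**Figure D4:**
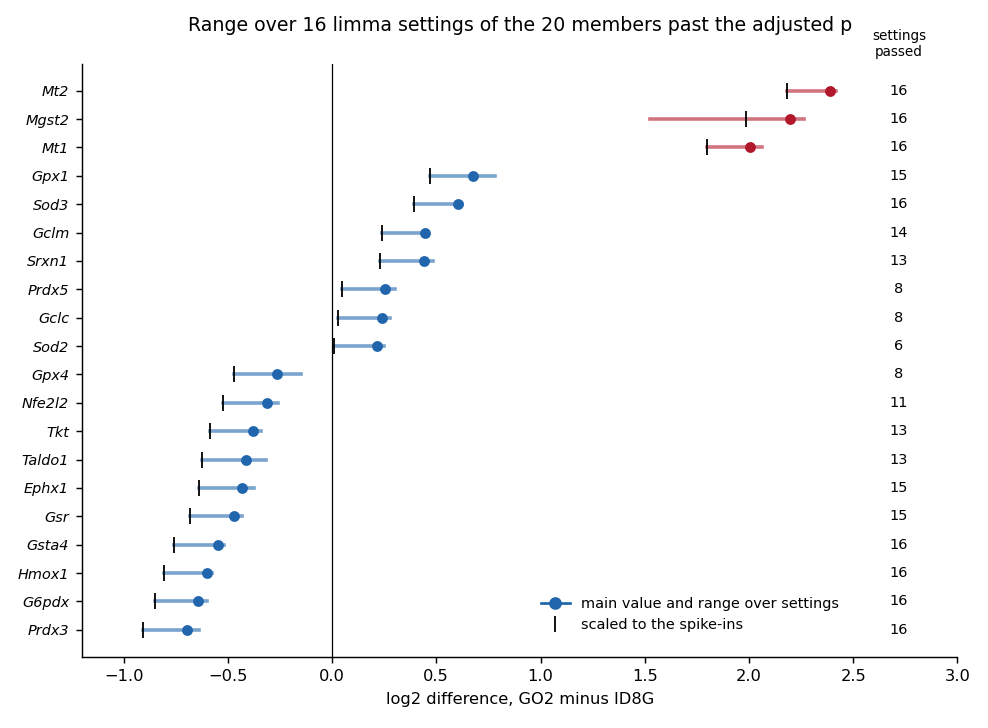
Log2 difference between GO2 and ID8G cells (x axis) for the 20 members past the adjusted p, with the reported value (point), its range over 16 limma settings (bar) and the value scaled to the spike-ins (black tick). The column at the right counts the settings in which the gene passed. No bar crosses 0, and the smallest increases, those of Prdx5, Gclc and Sod2, come closest to 0 when scaled to the spike-ins.

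A wider list of 127 genes of the same pathways was written for comparison, of which 124 had a probe and 108 were tested. Of these, 6 were called higher and 7 lower, beside 5.96% and 3.94% of the gene symbols, with a median difference of 0.00. Among the 6, Cyba, Slc39a8 and Ephx2 entered the test only through the GO2 arrays, so their adjusted p is not used as support. Scaled to the spike-ins, which lowers all genes alike, 5 of the 108 were called higher and 9 lower. The share of gene symbols called under that scaling is not given. In the main setting the called genes came from every role but the control of NRF2.

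The largest decreases were in further glutathione transferases. Gsta2 had a log2 level of 0.95 and 0.89 in ID8G and of -1.22 and -1.45 in GO2 cells, 4.77-fold lower (adjusted p = 0.00058, limma). Gsto2 had 1.19 and 1.24 in ID8G and -0.74 and -0.61 in GO2 cells, 3.71-fold lower (adjusted p = 0.000455, limma). Gstt3 went the other way, at -0.99 and -1.15 in ID8G and 0.15 and 0.14 in GO2 cells, 2.32-fold higher (adjusted p = 0.0013, limma). None of these 3 overlapped between the lines. A second Gsto2 probe was well above background on no array and could not be tested. Gsta2 has close relatives, and whether its probe also binds them was not tested.

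In the same role Slc7a11, the cystine importer that feeds glutathione synthesis, was 1.92-fold lower, with -0.20 and 0.07 in ID8G and -1.01 and -0.99 in GO2 cells (adjusted p = 0.0064, limma). A second Slc7a11 probe was 1.70 lower on the log2 scale and was called. Prdx2, a cytosolic peroxiredoxin, was 1.70-fold higher and Gpx2, an epithelial glutathione peroxidase, 1.67-fold higher. Gpx2 was dim, at -3.52 and -3.56 in ID8G cells, where the lowest signals well above background were -3.53 and -3.82, so its fold is uncertain. In all, 10 of the 32 tested genes of this role were higher and 12 lower at the adjusted p, beside 21.0% and 20.0% of the gene symbols.

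Of 12 genes that control NRF2, Maff and Mafk, which encode small MAF partners, were lower (-0.96 and -0.26), and Sqstm1, which encodes the p62 adaptor that sequesters KEAP1, was higher (0.53, with 0.53 on its second probe). In the main setting none of the 12 reached 2-fold with an adjusted p below 0.05, beside 9.90% of the gene symbols. Spike-in scaling, which lowers every difference by 0.208, takes Maff past 2-fold.

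Among superoxide sources and redox regulators, Msrb3, a methionine sulfoxide reductase, had -3.04 and -2.77 in ID8G and -0.43 and -0.56 in GO2 cells, 5.33-fold higher (adjusted p = 0.00077, limma). Cyba, the p22phox subunit of NADPH oxidases, was well above background in GO2 cells only. It too entered the test only through the GO2 arrays, and it was higher there with an approximate bound of 2.90-fold. Its log2 difference was 1.08 after normexp background correction, under the 1.54 of that bound, and that of Msrb3 was 1.59 in place of 2.41. Of the catalytic partners of p22phox, Nox1 was 0.58 higher on the log2 scale, with -3.27 and -3.32 in ID8G and -2.70 and -2.71 in GO2 cells (adjusted p = 0.0037, limma). Nox1 was dim in ID8G cells, near their lowest signals well above background of -3.53 and -3.82, so this size is uncertain. Cybb and Nox4 were well above background on no array. Second probes of Cyba, Nox1 and Slc39a8 were too dim to be tested. Txnip, which binds and inhibits thioredoxin, was 2.46-fold lower, with 4.16 and 4.29 in ID8G and 2.94 and 2.92 in GO2 cells, and its second probe was 0.97 lower on the log2 scale, under 2-fold. Sesn3, a stress-induced sestrin, was 2.60-fold lower, with 0.69 and 0.78 in ID8G and -0.61 and -0.68 in GO2 cells. Xdh is not in these counts, since its brightest probe was well above background on only 1 array of each line. Its other probe was called higher, having entered the test only through the GO2 arrays. That probe had -5.63 and -6.12 in ID8G, not well above background, and -2.56 and -2.53 in GO2 cells, so no fold is given.

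Of 17 tested selenoproteins and selenocysteine factors, 2 passed the adjusted p (11.8%) and 15 did not, where 41.0% of the gene symbols passed. Selenow, a small cytosolic selenoprotein, was 2.20-fold higher, with 1.95 and 1.82 in ID8G and 3.08 and 2.97 in GO2 cells. Selenop, the secreted carrier of selenium, was 2.15-fold lower, with 5.02 and 5.07 in ID8G and 3.95 and 3.93 in GO2 cells. The 2 genes thus moved apart, each without overlap between the lines. Scaled to the spike-ins, Selenow stayed higher at 0.93 and no longer reached 2-fold.

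In iron and metal handling, the transferrin receptor Tfrc was 2.23-fold lower, with 3.50 and 3.41 in ID8G and 2.32 and 2.28 in GO2 cells (adjusted p = 0.000919, limma), and its second probe was lower as well. The brightest probe of Cp, the ferroxidase ceruloplasmin, was 2.19-fold lower, but the 4 Cp probes disagreed in size and the mean over them was 0.64 lower on the log2 scale, under 2-fold. The iron exporter Slc40a1 was 1.48-fold lower. In this role 8 of 16 tested genes were lower and 2 higher at the adjusted p, beside 20.0% and 21.0% of the gene symbols. The lower ones were Tfrc, Cp, Slc40a1, Slc11a2 and Hephl1, which act on iron, and Mt3, Slc30a1 and Slc39a10, which bind or carry zinc, and the higher ones were the zinc genes Mtf1 and Slc39a8. The 3 other Slc11a2 probes differed by -0.29 to -0.12 and did not pass.

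Of the phase 1 and epoxide enzymes, Ephx2, the soluble epoxide hydrolase, was well above background in GO2 cells only. It also entered the test only through the GO2 arrays. It was higher there, with an approximate bound of 1.61-fold, while the microsomal Ephx1 fell. Cyp2s1 was 1.74-fold higher, and Por, the reductase that passes electrons to cytochrome P450 enzymes, was 1.45-fold lower. Of the 13 called genes of the wider list, Gstt3 and Ephx2 no longer reached 2-fold after normexp background correction (0.97 and 0.71), and Cyba, Slc39a8 and Ephx2 are not tested where signal well above background is asked of all 4 arrays.

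**Figure D5:**
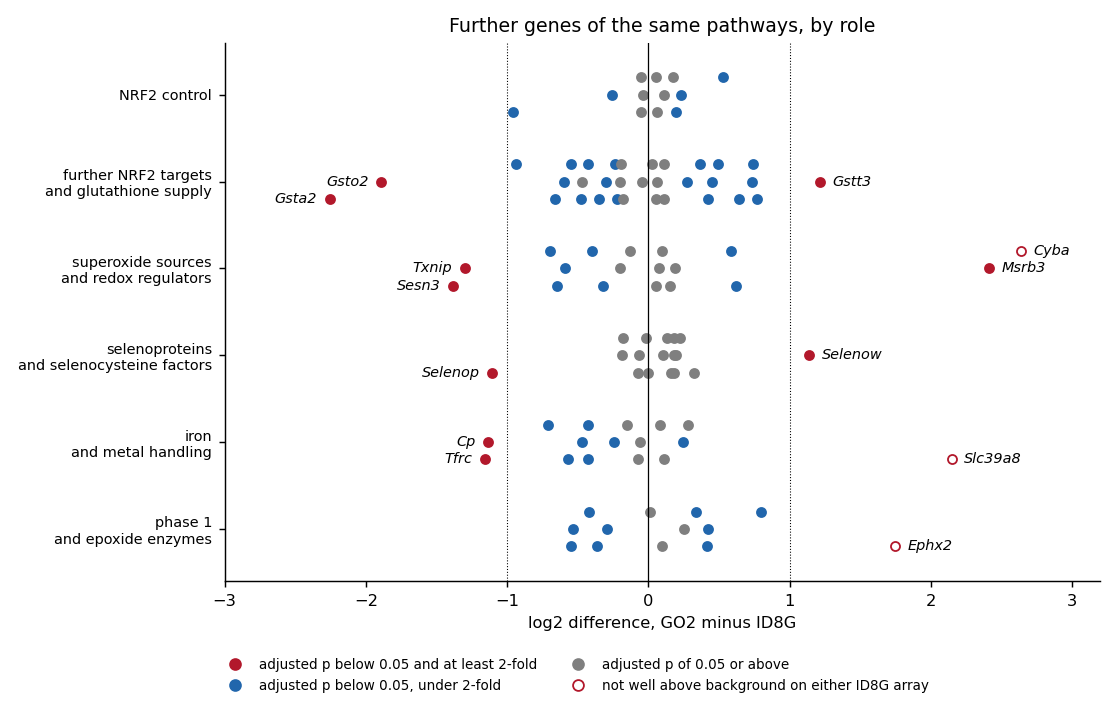
Log2 difference between GO2 and ID8G cells (x axis) for the 108 tested genes of the wider list, by role (rows, points spread vertically for legibility only). Named red points passed the adjusted p and 2-fold. Open points were not well above background on either ID8G array, so their true difference is known only through an approximate bound. The 6 called increases and 7 called decreases are spread over 5 of the 6 roles.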

How the data were processed

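RNA of ID8G and GO2 cells was hybridized as Cy3-labeled cRNA to Agilent mouse arrays, 2 per line. The authors deposited the scanner output of each array, which gives a linear intensity per spot, background-subtracted in Feature Extraction 11.5.1.1 without any scaling across arrays, and flags outlier spots and signal well above background. They also deposited a table of log2 values from GeneSpring, centered on each probe, which was used for 1 alternative only. Of its columns of samples, 0 were left unused.

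Spots marked as outliers were left out, spots of a probe were averaged, and the 75th percentile of each array over probes that are not controls was subtracted on the log2 scale. Tested were the 28368 probes whose signal was well above background on both arrays of 1 line or of both, with limma 3.58.1 in R 4.3.3, with the cell line as the only term, and a call needed 2-fold and an adjusted p (Benjamini-Hochberg) below 0.05. This scaling assumes that the bulk of transcripts did not shift together. The precision is limited by 2 arrays per line. Probes were named through their accession and a RefSeq table for GRCm38.p6 (32994 of 56605 probes, 58.3%), and since the arrays were designed on mm9 no probe coordinate is given. Promoters came from RefSeq for GRCm38.p6. The probe with the highest mean level stood for a gene, and where a further probe of a called or named gene differed in its call, this is stated. Figures were drawn with matplotlib 3.10.9 in python 3.11.15.

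Named in the text are all members, with values for each array of those called at 2-fold and for at most 3 others per role, and of the wider list the called genes and at most 3 others per role. Other values were chosen after they were seen. The members, the lists and the rules were chosen with earlier results of these data known. On data simulated with the spread of these arrays, calls with the right sign were made for 174 of 200 changed probes (87%) out of 28344, and 1 unchanged probe was called. The planted changes were all well above 2-fold, so the 87% does not apply to smaller differences such as those of most members.

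The alternatives were normexp background correction (on the median pixel of each spot, with 50 as the offset), median centering, quantile normalization, spike-in scaling (7 spike-in probes, 0.15 to 0.278 higher on the GO2 arrays), dim probes kept, a stricter filter that asks all 4 arrays for signal well above background, the methods' t-test, the deposited log2 values, a variance that follows intensity, the replicate block, outlier spots kept, the mean over the probes of a gene, and each array left out. The methods' t-test is the t-test with Welch's correction that the study's methods name for comparing groups. They do not name the test used for the arrays, which were processed in GeneSpring. Replicate numbers did not pair the arrays (correlation of the deviations 0.0273 across probes). A further leukocyte marker is not reported here.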

Additional observations from a re-analysis of the deposited data

How the results depend on the processing

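Mt1, Mt2 and Mgst2 were called in all 16 limma settings, with differences of 1.80 to 2.06, 2.18 to 2.42 and 1.53 to 2.26. With the methods' t-test and Benjamini-Hochberg adjustment 0 members were called, with or without the 2-fold minimum and in either direction, and likewise 0 genes of the wider list in either direction and 0 probes higher and 3 lower. Their adjusted p was then 0.114 to 0.119. At an unadjusted p below 0.05 that test put 7 members higher and 12 lower, 3 and 0 of them at 2-fold. Without a fold minimum, 5 members passed as higher and 15 as lower with spike-in scaling, and 5 as higher and 4 as lower with no filter on dim probes, against 10 and 10. Leaving out 1 array gave 6 to 7 higher and 6 to 8 lower, fewest without GO2 replicate 1 (6 and 6), and left 3 members called higher and 0 lower each time. The median difference of the members was -0.22 with spike-in scaling. The probes called numbered 818 higher and 517 lower after normexp, 666 and 606 with signal well above background on all 4 arrays, where 3 genes of the wider list were called higher, and 1434 lower with spike-in scaling, against 1277 and 947. Under the replicate block 1251 probes were called higher and 936 lower, and 3 members were called higher and 0 lower, while 7 passed as higher and 9 as lower without the fold minimum. Of 672 member values under an alternative, 0 that passed the adjusted p changed sign, 73 no longer passed it, 20 of them under the methods' t-test, and 22 came to pass it. The slide could not be used as a block because there is 1 slide. Low signal limits Gpx3 and Gpx7, which were well above background on no array, and the bounds for Cyba, Slc39a8 and Ephx2.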
